A study of Homo sapiens with 6 samples.

Results

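The CLCN5 intronic cluster is a run of 8 miRNA hairpins on the X chromosome, MIR532, MIR188, MIR500A, MIR362, MIR501, MIR500B, MIR660 and MIR502. Its mature miRNAs were chosen by name, any arm, and selected on their mean over all 6 libraries, which had to be at least 10 normalized read counts. Of 787 mature miRNAs in the deposited table, 13 carried one of these names and 8 reached that mean. These 8 were miR-532-5p, miR-532-3p, miR-188-5p, miR-500a-3p, miR-362-5p, miR-501-3p, miR-660-5p and miR-502-3p. The libraries came from A549 cells, a human cell line derived from a lung adenocarcinoma and labelled epithelial. In 3 libraries the cells carried pcDNA4-SMARCA4, a plasmid described in the labels as restoring SMARCA4. The other 3 carried the empty vector pcDNA4, and all 6 were taken at 48 h after transfection. SMARCA4, also called BRG1, is an ATPase of the SWI/SNF chromatin remodelling complex. The labels do not say what share of the cells took up plasmid, and each library averages over the whole culture, so fewer cells with a miRNA and less of it per cell cannot be told apart. SMARCA4 mRNA was not analysed here.

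Intronic miRNAs are cut out of the transcript of the gene that holds them, the host gene, or out of a transcript with a start of its own. CLCN5 encodes an endosomal chloride and proton exchanger that is mutated in Dent disease, an inherited disorder of the kidney tubule. A hairpin gives a 5p and a 3p strand, and usually 1 of them is kept in the silencing complex while the other is degraded. The kept strand finds its targets mainly through the seed, bases 2 to 8 counted from its 5′ end. In lung cancer cells miR-660-5p has been described as a repressor of MDM2, the ubiquitin ligase of p53.

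In GRCh38 (GENCODE 29) CLCN5 lies on the plus strand of the X chromosome from 49922615 to 50099235. All 8 hairpins lie on the same strand, from 50003148 to 50014683, a stretch of 11536 bases. The 3 annotated CLCN5 transcripts that reach across this stretch hold all hairpins in a single intron, from 49925315 to 50042315, and no hairpin overlaps an exon of these. The hairpins fall into a near pair and a longer row. MIR532 (50003148 to 50003238) and MIR188 (50003503 to 50003588) are 264 bases apart, and 4842 bases separate MIR188 from MIR500A (50008431 to 50008514). MIR362 (50008964 to 50009028), MIR501 (50009722 to 50009805), MIR500B (50010672 to 50010750), MIR660 (50013241 to 50013337) and MIR502 (50014598 to 50014683) follow. The deposited table holds no coordinates.

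The mature sequences below, from RefSeq on GRCh38.p14, are shown because the cluster holds near-copies whose reads can be confused. They were matched by name for 7 of the 8 members. Bases 2 to 8 are in capitals.
miR-501-3p: aAUGCACCcgggcaaggauucu
miR-502-3p: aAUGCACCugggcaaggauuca
miR-500a-3p: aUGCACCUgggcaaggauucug
miR-532-5p: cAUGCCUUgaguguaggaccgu
miR-188-5p: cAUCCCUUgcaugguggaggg
miR-362-5p: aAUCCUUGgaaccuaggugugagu
miR-532-3p: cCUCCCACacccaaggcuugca

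miR-501-3p and miR-502-3p shared their seed and, counted from 1 at the 5′ end, differed by C9U and U22A. miR-500a-3p and miR-502-3p shared an unbroken run of 20 bases, which starts at base 1 of miR-500a-3p and at base 2 of miR-502-3p. Their seeds are therefore shifted by 1 base. How the authors assigned reads to these 3 miRNAs is not stated in the labels or the file, so their separate values are uncertain. The other 4 sequences had seeds that no other member shared. No miRNA outside the cluster that carries a seed of these 7 was analysed here.

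The hairpins of MIR532, MIR500A and MIR502 are shown with both mature arms in capitals, since MIR532 is the hairpin with a member from each arm and the other two give the near-identical 3p strands.
MIR532: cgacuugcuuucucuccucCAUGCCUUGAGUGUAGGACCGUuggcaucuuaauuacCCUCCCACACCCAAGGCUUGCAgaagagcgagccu
MIR500A: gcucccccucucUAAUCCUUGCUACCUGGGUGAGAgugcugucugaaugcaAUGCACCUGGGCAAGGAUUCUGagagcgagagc
MIR502: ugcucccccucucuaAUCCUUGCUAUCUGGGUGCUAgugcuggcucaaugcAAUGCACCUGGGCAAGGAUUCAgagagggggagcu

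Reads assigned to listed miRNAs numbered between 701885 and 7274329 in SMARCA4 libraries and between 881370 and 1079944 in empty vector libraries. SMARCA4 replicate 2 held 8.33 times the mean of the other 5. One read was worth 2.61, 0.422 and 2.36 normalized counts in SMARCA4 replicates 1, 2 and 3, against 1.89, 1.90 and 1.64 in empty vector replicates 1, 2 and 3. Of the epithelial marker miRNAs 7 of 8 were in the table and above 0, led by miR-31-5p at 30333 ± 9817 in SMARCA4 cells and 34612 ± 10149 in empty vector cells (SD, n = 3 each). Of the 7, miR-141-3p and miR-203a-3p rose (limma adjusted p = 0.0124 each), where 0.942% of all tested miRNAs rose. The log2 fold changes of the 7 were positive for 4 and negative for 3, and miR-200b-3p was at 190 ± 51.8 in SMARCA4 cells and 422 ± 123 in empty vector cells (SD, n = 3 each; limma adjusted p = 0.109). Among the blood cell markers 3 of 8 were measured, and the other 5, among them miR-451a, were not analysed here. The summed level of the 3, nearly all miR-486-5p, ranged from 7962 to 14458 in SMARCA4 libraries and from 5621 to 7213 in empty vector libraries. The muscle, liver and neuron markers summed to between 1785 and 1964 in SMARCA4 libraries and between 1080 and 1791 in empty vector libraries, with miR-128-3p and miR-9-5p the highest, and miR-1-3p and miR-133a-3p were at 0. The part of these markers in the cluster's values was not tested.

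The cluster's 8 miRNAs were moderate to scarce in A549 cells. Because the mean over all libraries chose them, the levels are a description. The summed level of the 8 was 1566, 1205 and 1412 normalized counts in SMARCA4 replicates 1, 2 and 3, and 1303, 1234 and 1444 in empty vector replicates 1, 2 and 3. The groups overlapped, with means of 1394 ± 181 in SMARCA4 cells and 1327 ± 107 in empty vector cells (SD, n = 3 each). These sums rest on 599, 2853 and 598 reads in SMARCA4 cells and on 691, 649 and 883 reads in empty vector cells.

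As a share of all miRNA reads, the 8 members made up 0.0853%, 0.0392% and 0.0779% in SMARCA4 replicates 1 to 3, and 0.0784%, 0.0695% and 0.0818% in empty vector replicates 1 to 3. SMARCA4 replicate 2 was the low one, with an exact 95% binomial interval of 0.0378% to 0.0407%. The intervals of the other 5 libraries lay between 0.0643% and 0.0925%. Such intervals cover counting error only, and not the variation between libraries. Whether copies of 1 molecule made by PCR were counted as separate reads is not given. If they were, the intervals are too narrow.

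**Figure D1:**
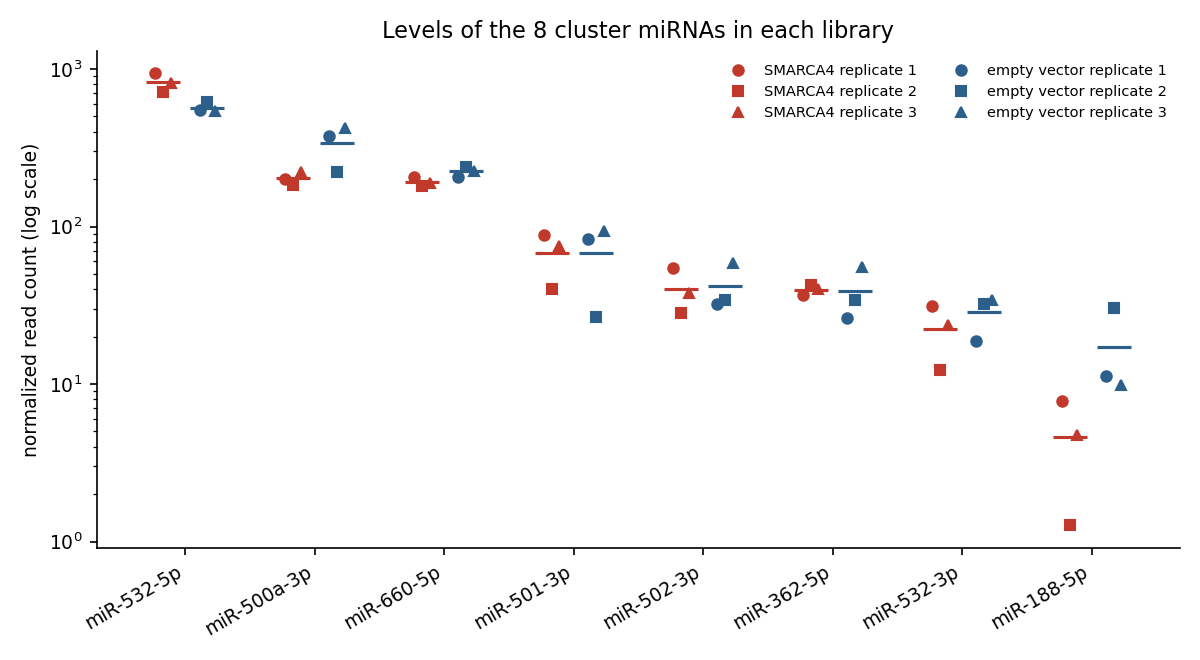
Normalized read count (log scale) of the 8 cluster miRNAs in each library, with SMARCA4 libraries in red and empty vector libraries in blue. Points are libraries, shapes are replicate numbers and horizontal lines are group means; miR-532-5p lies highest in every library, with 715 to 939 in SMARCA4 libraries and 543 to 616 in empty vector libraries.

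No member changed past the threshold with SMARCA4. Over the 637 miRNAs tested, 1.41% had a limma adjusted p under 0.05, and 0 of the 8 members did. At an unadjusted p under 0.05 limma gave 1 member, miR-188-5p, against 22.6% of all tested. edgeR on the recovered reads also called 0 members, against 1.26% of all tested, and gave the same member at an unadjusted p under 0.05, against 24.0% of all tested. DESeq2 called 0 members, against 10.4% of those with an adjusted p, and gave the same member at an unadjusted p under 0.05, against 18.1%. The groups of 3 did not overlap for 3 members, miR-532-5p, miR-660-5p and miR-188-5p, where 31.1% of all tested miRNAs showed no overlap. The member log2 fold changes had a median of −0.13, against −0.05 over all tested, with 3 positive and 5 negative. One member, miR-188-5p, reached the mean of 10 only through the empty vector libraries.

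hsa-miR-532-5p was the most abundant of the 8, at rank 95 of the 787 by mean. It stood at 939, 715 and 819 normalized counts in SMARCA4 replicates 1, 2 and 3, and at 547, 616 and 543 in empty vector replicates 1, 2 and 3. All 3 SMARCA4 libraries lay above all 3 empty vector libraries. The means were 824 ± 112 in SMARCA4 cells and 569 ± 41.2 in empty vector cells (SD, n = 3 each). That is a log2 fold change of 0.53 (SE 0.26, 95% interval −0.06 to 1.12) with a limma adjusted p of 0.250. The value was 0.63 without SMARCA4 replicate 2, and 0.21 with libraries rescaled to the same total, which moved the median of all tested miRNAs by −0.26. Relative to that median the log2 difference was 0.58 as deposited and 0.51 after rescaling.

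hsa-miR-660-5p, at rank 157, was at 207, 181 and 189 normalized counts in SMARCA4 replicates 1 to 3. In empty vector replicates 1 to 3 it was at 207, 240 and 223.7. The groups did not overlap, but SMARCA4 replicate 1 (206.6) and empty vector replicate 1 (207.4) differed by less than 1 read. The log2 fold change was −0.22 (SE 0.28, 95% interval −0.85 to 0.41, limma adjusted p = 0.677), with means of 192 ± 12.98 in SMARCA4 cells and 223.7 ± 16.1 in empty vector cells (SD, n = 3 each).

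miR-500a-3p, at rank 137, is the 3p strand that nearly matches miR-502-3p in the sequences above. It stood at 201, 185 and 221.9 normalized counts in SMARCA4 replicates 1 to 3, and at 377, 220.6 and 425 in empty vector replicates 1 to 3. Empty vector replicate 2 lay inside the SMARCA4 range, and the other two empty vector libraries lay above it. The means were 203 ± 18.7 in SMARCA4 cells and 341 ± 107 in empty vector cells (SD, n = 3 each). The log2 fold change was −0.70 (SE 0.33, 95% interval −1.45 to 0.05, limma adjusted p = 0.239), and −0.98 without empty vector replicate 2 (limma adjusted p = 0.168).

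The other 3p strands of this kind had group means that nearly coincided. miR-501-3p, which in neurons has been described as a regulator of a glutamate receptor subunit, was at 88.9, 40.1 and 75.6 in SMARCA4 replicates 1 to 3 and at 83.0, 26.6 and 93.2 in empty vector replicates 1 to 3. In both groups replicate 2 was the low library. miR-502-3p was at 54.9, 28.3 and 37.8 in SMARCA4 replicates 1 to 3, and at 32.1, 34.2 and 58.9 in empty vector replicates 1 to 3. The groups overlapped for both miRNAs. Their log2 fold changes were 0.12 (95% interval −1.11 to 1.36) and −0.04 (95% interval −1.03 to 0.94), with limma adjusted p-values of 0.936 and 0.965. Differences inside these intervals are not excluded at this depth and spread.

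miR-362-5p, described in liver cancer cells as a repressor of the deubiquitinase CYLD, was at 36.6, 42.2 and 40.1 in SMARCA4 replicates 1 to 3. It was at 26.4, 34.2 and 55.6 in empty vector replicates 1 to 3. All 3 SMARCA4 values fell inside the empty vector range, and the log2 fold change was 0.10 (95% interval −0.83 to 1.03, limma adjusted p = 0.933). The signs of miR-362-5p and miR-501-3p turned negative, to −0.22 and −0.19, with libraries rescaled to the same total. For miR-501-3p edgeR and DESeq2 on the recovered reads also gave a negative sign, at −0.014 and −3.4e-04.

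miR-188-5p, described in mouse as a switch between bone and fat formation in marrow stromal cells, rested on few reads. It had 3, 3 and 2 reads in SMARCA4 replicates 1 to 3 and 6, 16 and 6 reads in empty vector replicates 1 to 3. In normalized counts these are 7.84, 1.27 and 4.72 in SMARCA4 cells, against 11.3, 30.4 and 9.81 in empty vector cells. The groups did not overlap, and empty vector replicate 2 was by far the highest. The log2 fold change was −1.73 (SE 0.69, 95% interval −3.29 to −0.17, limma adjusted p = 0.181). It was −1.18 without SMARCA4 replicate 2 and −1.25 without empty vector replicate 2. The cutoff of 10 fell just under this miRNA, whose mean over the 6 libraries was 10.9. The next member up was miR-532-3p at 25.5, and the highest of the 5 left out was miR-500a-5p at 5.15.

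**Figure D2:**
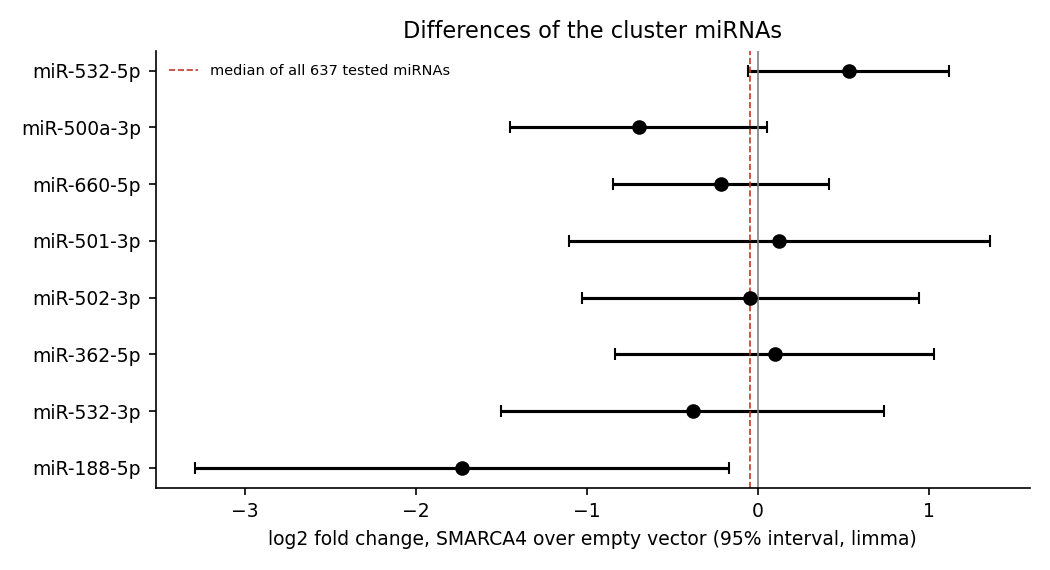
Log2 fold change of each cluster miRNA, SMARCA4 over empty vector, with its 95% interval from limma; the dashed line is the median of all 637 tested miRNAs. The values run from −1.73 for miR-188-5p to 0.53 for miR-532-5p, and all intervals except that of miR-188-5p include 0.

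MIR532 was the hairpin with both arms among the members, so its strands could be compared within each library, where the scaling cancels in a plain ratio. miR-532-3p was at 31.4, 12.3 and 23.6 normalized counts in SMARCA4 replicates 1 to 3, and at 18.9, 32.3 and 34.3 in empty vector replicates 1 to 3. The groups overlapped, and the log2 fold change was −0.38 (95% interval −1.50 to 0.74, limma adjusted p = 0.677), or −0.02 without SMARCA4 replicate 2. The 5p strand exceeded the 3p strand 29.9-fold, 58.4-fold and 34.7-fold in SMARCA4 replicates 1 to 3. In empty vector replicates 1 to 3 it did so 29-fold, 19.1-fold and 15.8-fold. All 3 SMARCA4 ratios lay above the empty vector ratios, the closest pair by a narrow margin. On the log2 scale, with 1 added to each value, the ratio averaged 5.22 ± 0.47 in SMARCA4 cells and 4.31 ± 0.43 in empty vector cells (SD, n = 3 each). The difference of 0.91 had an exact two-sided permutation p of 0.1, the smallest that 3 against 3 libraries allow.

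The 3p strand supplied 12, 29 and 10 reads in SMARCA4 replicates 1 to 3 and 10, 17 and 21 reads in empty vector replicates 1 to 3. As a share of both arms this is 3.23% (exact 95% interval 1.68% to 5.58%), 1.68% (1.13% to 2.41%) and 2.80% (1.35% to 5.09%) in SMARCA4 cells. In empty vector cells it is 3.33% (1.61% to 6.04%), 4.99% (2.93% to 7.86%) and 5.95% (3.72% to 8.95%). The intervals of SMARCA4 replicates 1 and 3 overlapped those of all empty vector libraries. The interval of SMARCA4 replicate 2, the most deeply sequenced library, overlapped that of empty vector replicate 1 and lay below those of empty vector replicates 2 and 3.

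**Figure D3:**
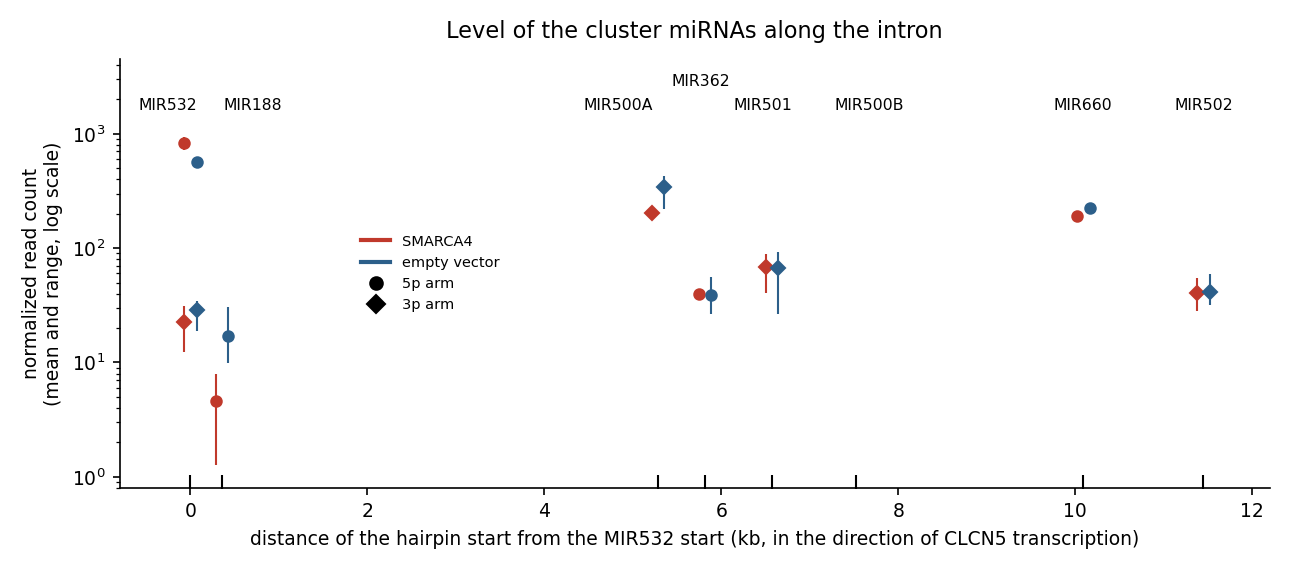
Mean normalized read count (log scale) of each cluster miRNA in SMARCA4 libraries (red) and empty vector libraries (blue), placed at the distance in kb of its hairpin start from the MIR532 start; circles are 5p arms, diamonds are 3p arms, lines span the lowest to the highest of the 3 libraries and ticks mark the 8 hairpins. The level does not follow the position: miR-532-5p and miR-188-5p, whose hairpins are 264 bases apart, are the highest and the lowest, and MIR500B has no member.

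The 5 rows under the mean of 10 were strands with few or no reads. The 5p strand of MIR500A, which the table lists with an added @ sign, had 1, 0 and 2 reads in SMARCA4 replicates 1 to 3 and 4, 5 and 4 reads in empty vector replicates 1 to 3. miR-501-5p had 0 reads in all SMARCA4 libraries and 2, 5 and 1 reads in empty vector replicates 1 to 3. miR-188-3p had 0 reads in all SMARCA4 libraries and 1 read in each empty vector library. Both stayed at 0 in SMARCA4 replicate 2, the library with the most reads, where a count of 0 allows up to 1.27 normalized counts. In SMARCA4 replicates 1 and 3 it allows up to 7.84 and 7.08. miR-502-5p had 2 reads over the SMARCA4 libraries and 5 over the empty vector libraries, and miR-362-3p was at 0 in all 6. The limma adjusted p was 0.213 for the 5p strand of MIR500A, 0.109 for miR-501-5p and 0.919 for miR-502-5p, and miR-188-3p was under the minimum for a test. miR-500b and miR-660-3p were not analysed here.

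The summed levels overlapped between the groups, while the parts that came from miR-532-5p, miR-500a-3p, miR-660-5p and miR-188-5p did not. For such parts no share over all miRNAs is available. The groups did not overlap for the levels of 31.1% of all tested miRNAs. For ratios of 2 miRNAs with a mean of at least 10 that share was 36.4%. miR-188-5p reached the mean of 10 only through the empty vector libraries, which by itself favors a lower part with SMARCA4. It had 2 to 3 reads in SMARCA4 libraries and 6 to 16 in empty vector libraries. miR-532-5p supplied 59.9% (exact 95% interval 55.9% to 63.9%), 59.3% (57.5% to 61.2%) and 58.0% (54.0% to 62.0%) of the summed level in SMARCA4 replicates 1 to 3. It supplied 42.0% (38.3% to 45.7%), 49.9% (46.0% to 53.8%) and 37.6% (34.4% to 40.9%) in empty vector replicates 1 to 3. The intervals of the SMARCA4 libraries lay above those of the empty vector libraries, with a mean of 59.1% ± 0.976 in SMARCA4 cells and 43.2% ± 6.25 in empty vector cells (SD in percentage points, n = 3 each). SMARCA4 replicate 2, which stood apart in depth and in the cluster's share of all reads, lay with the other SMARCA4 libraries here.

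miR-500a-3p showed the opposite order, also without overlap of the groups. Its part of the summed level was 12.9% (10.3% to 15.8%), 15.3% (14.0% to 16.7%) and 15.7% (12.9% to 18.9%) in SMARCA4 replicates 1 to 3. In empty vector replicates 1 to 3 it was 28.9% (25.6% to 32.5%), 17.9% (15% to 21.04%) and 29.4% (26.5% to 32.6%). The interval of empty vector replicate 2 overlapped all SMARCA4 intervals. The parts sum to the whole in each library, so the values of miR-532-5p and miR-500a-3p are not independent, and no test was made on them.

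**Figure D4:**
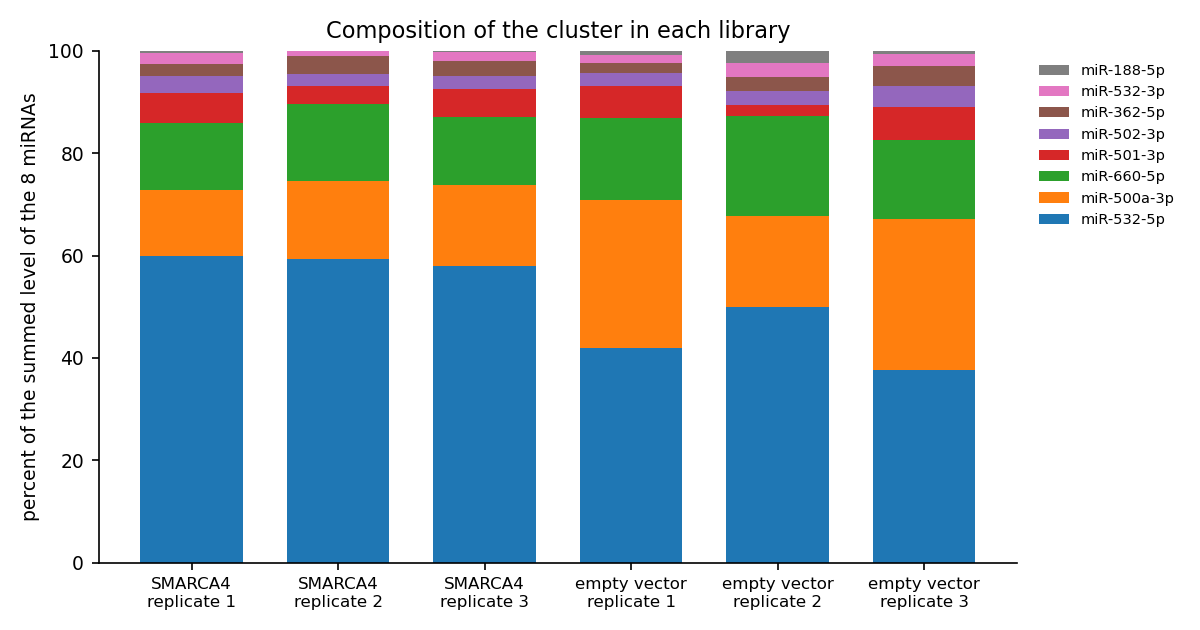
Percent of the summed level of the 8 cluster miRNAs that each supplied, by library, with SMARCA4 libraries on the left and empty vector libraries on the right. miR-532-5p (lowest segment) takes 58.0% to 59.9% in SMARCA4 libraries and 37.6% to 49.9% in empty vector libraries.

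Ratios between members were taken within each library, with 1 added to each normalized count, so ratios to scarce members still depend in part on the scaling. miR-532-5p exceeded miR-660-5p 4.53-fold, 3.93-fold and 4.32-fold in SMARCA4 replicates 1 to 3, against 2.63-fold, 2.56-fold and 2.42-fold in empty vector replicates 1 to 3. Over miR-500a-3p it was 4.64-fold, 3.86-fold and 3.68-fold in SMARCA4 replicates 1 to 3, against 1.45-fold, 2.79-fold and 1.28-fold in empty vector replicates 1 to 3. Neither set of ratios overlapped between groups. Of the 28 pairs of members, 9 had ratios that did not overlap, which is 32.1%, where 36.4% of all 88410 pairs among the miRNAs with a mean of at least 10 did so. Of the 9, 4 were ratios of miR-532-5p, to miR-500a-3p, miR-660-5p, miR-532-3p and miR-188-5p. The other 5 were ratios of miR-660-5p, miR-501-3p, miR-502-3p and miR-532-3p to miR-188-5p, and of miR-500a-3p to miR-362-5p. Without miR-188-5p, which reached the mean of 10 only through the empty vector libraries, 4 of 21 pairs did not overlap, which is 19.0%. The 36.4% keeps miRNAs that passed through a single group, so it is not a like comparison for the 19.0%.

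**Figure D5:**
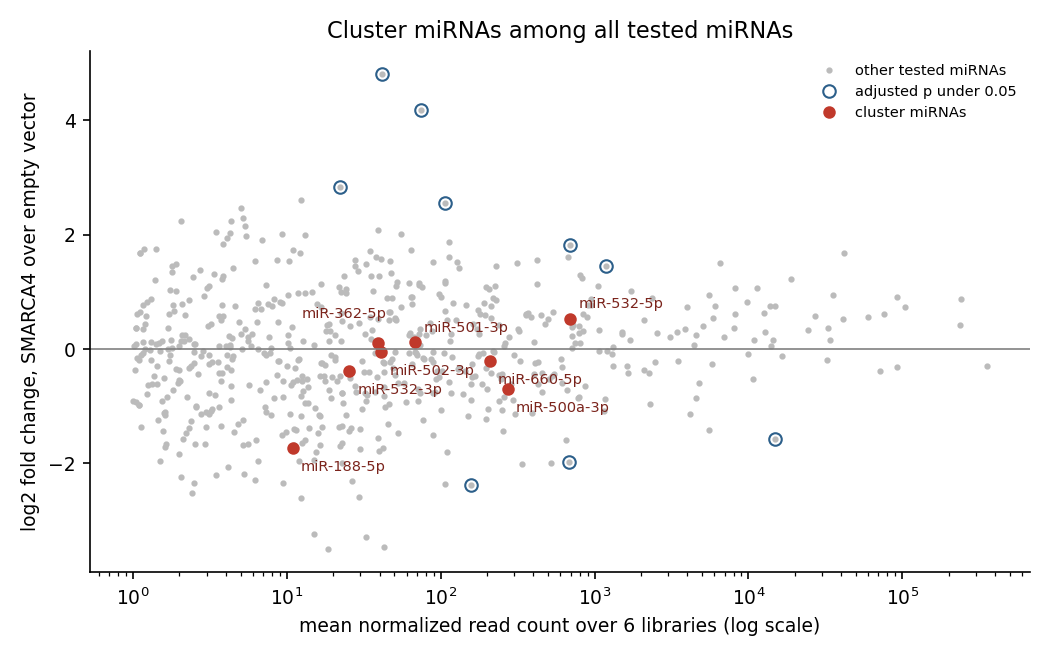
Log2 fold change, SMARCA4 over empty vector, against the mean normalized read count over 6 libraries (log scale) for the 637 tested miRNAs; red points are the 8 cluster miRNAs and open circles mark an adjusted p under 0.05. The red points lie among the grey ones, and none carries a circle.

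The miRNAs whose pattern over the 6 libraries was most like that of miR-532-5p lay outside the cluster. Only 7 of the 420 miRNAs compared were cluster members. Closest matches outside the cluster were therefore likely unless members were more alike than other miRNAs. Whether the members vary together was not tested. Likeness was the root mean square difference of log2 values after each miRNA's own mean was removed, over the 6 libraries and 420 other miRNAs with a mean of at least 10. The closest were let-7b-5p at 0.17, miR-15a-5p at 0.18 and miR-5100 at 0.18. let-7b-5p was at 4954 ± 113 in SMARCA4 cells and 2970 ± 244 in empty vector cells (SD, n = 3 each; limma adjusted p = 0.110). The nearest cluster member was miR-660-5p, at 0.38 and rank 60 of the 420, where the median difference was 0.67. miR-532-3p, from the same hairpin, was at 0.59 and rank 162. The other members ranked 84 (miR-362-5p), 98 (miR-502-3p), 228 (miR-501-3p), 239 (miR-500a-3p) and 384 (miR-188-5p). Of these, miR-501-3p, miR-500a-3p and miR-188-5p lay beyond the median difference.

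For miR-660-5p the closest were miR-452-5p at 0.07, miR-455-5p at 0.08 and miR-22-3p at 0.12. miR-452-5p, also on the X chromosome, was at 545.3 ± 25.9 in SMARCA4 cells and 677 ± 46.9 in empty vector cells (SD, n = 3 each; limma adjusted p = 0.483). The nearest cluster member was miR-362-5p at 0.35 and rank 55, where the median difference was 0.61. The other members ranked 60 (miR-502-3p), 79 (miR-532-5p), 91 (miR-532-3p), 99 (miR-500a-3p), 253 (miR-501-3p) and 359 (miR-188-5p). Of these, miR-501-3p and miR-188-5p lay beyond the median difference. These differences describe 6 libraries and carry no test.

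Elsewhere on the X chromosome, a chosen list of 27 hairpin names in other units was searched for, and not all of them were found. The list does not cover all other miRNAs of the chromosome. Of the mature miRNAs with such a name, 41 were in the table and 33 were tested. Past a limma adjusted p of 0.05, 1 of these rose and 2 fell, where 0.942% of all tested rose and 0.471% fell. For 13 of the 33, or 39.4%, the groups did not overlap, beside 31.1% of all tested. miR-424-3p rose, with 1074 ± 278 in SMARCA4 cells and 299 ± 34.2 in empty vector cells. miR-222-3p and miR-222-5p fell, with log2 fold changes of −1.57 and −2.38. The other 2 of the 3 most abundant did not pass: miR-221-3p was at 15593 ± 7115 in SMARCA4 cells and 7055 ± 973 in empty vector cells, and miR-98-5p at 5518 ± 5170 in SMARCA4 cells and 3617 ± 850 in empty vector cells (SD, n = 3 each). The median log2 fold change of the 33 was −0.19, beside −0.13 for the cluster and −0.05 for all tested. Whether the cluster differs from these other X chromosome miRNAs was not tested.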

How the data were processed

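Total RNA was turned into small RNA libraries with a TruSeq kit, per the labels' protocols. The submitters' processing notes name bcl2fastq 2.18.0.12 and the build GRCh38. Trimming, alignment and counting: not given in the sources used here. The authors deposited a normalized signal per mature miRNA, and the table's name speaks of TMM. Every value was a whole multiple of 1 read within 1e-06, so 100% of the values gave whole reads.

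limma 3.58.1 (R 4.3.3) was run on log2(value + 1) with a mean-variance trend and no term but the group. It covered 637 miRNAs, those with a mean of at least 1, with Benjamini-Hochberg adjustment and a threshold of 0.05. This scale understates the change of scarce miRNAs. edgeR 4.0.16 (quasi-likelihood) and DESeq2 1.42.0 on recovered reads were alternatives. The fits were tested on simulated counts with the same extra spread for every miRNA. Simulated libraries differed only in depth and in the changes put in, so the simulation does not show how the fits perform on these data. Single ratios used exact permutation tests. Groups and replicates follow the titles, and the series text describes independent biological replicates. All pairs of libraries differed beyond sampling noise (lowest chi-square per degree of freedom 6.61).

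The members and lists were chosen with earlier results of these data known. Members were all named, with the 3 closest patterns for miR-532-5p and miR-660-5p, the called and 3 most abundant other X chromosome miRNAs, and the leading or called markers. Composition and ratios between members were added after seeing the data. Hairpins come from GENCODE 29 and sequences from RefSeq.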

Additional observations from a re-analysis of the deposited data

How the results depend on the processing

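Under all 16 alternatives 0 members were called, and the lowest adjusted p of any member was 0.112, for miR-532-5p without SMARCA4 replicate 2. miR-532-5p, miR-500a-3p, miR-660-5p, miR-532-3p and miR-188-5p kept their direction throughout. With 1 library left out, the log2 fold change ranged from 0.43 to 0.63 for miR-532-5p, −0.27 to −0.17 for miR-660-5p, −0.98 to −0.51 for miR-500a-3p, −0.66 to −0.02 for miR-532-3p and −2.16 to −1.18 for miR-188-5p. The sign of the other 3 was not stable: −0.44 to 0.46 for miR-501-3p, −0.14 to 0.39 for miR-362-5p and −0.29 to 0.23 for miR-502-3p. Libraries rescaled to the same total gave 0.21 for miR-532-5p, −0.19 for miR-501-3p, −0.22 for miR-362-5p and −0.36 for miR-502-3p. The same rescaling gave −0.54 for miR-660-5p, −1.02 for miR-500a-3p, −0.68 for miR-532-3p and −1.94 for miR-188-5p. A shift of −0.26 in the median of all tested miRNAs accompanied that rescaling. For miR-501-3p edgeR gave −0.014 and DESeq2 −3.4e-04, and for miR-188-5p edgeR gave −2.29. The summed level averaged 1309 in SMARCA4 cells and 1485 in empty vector cells with the same total, which moved the empty vector mean by more than its SD and put SMARCA4 below empty vector. With 1 library left out it stayed between 1309 and 1489 in SMARCA4 cells and between 1269 and 1373 in empty vector cells. The log2 arm ratio of MIR532 differed by 0.65 to 1.15 with 1 library left out. Over all miRNAs, calls numbered 9, against 0 to 41 with 1 library left out (41 without SMARCA4 replicate 2), 23 without a filter, 6 without the trend and 44 by DESeq2, which left 0 members without an adjusted p. Replicate numbers were not shown to pair the libraries: deviations of same-numbered libraries correlated at 0.073, 0.088 and 0.014 for replicates 1, 2 and 3. With the replicate block 0 members were called, with adjusted p-values of 0.183 for miR-532-5p (log2 fold change 0.53) and 0.595 for miR-660-5p (−0.22), and calls over all miRNAs numbered 13. Members under about 20 reads per library are limited by depth.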
